A study of Homo sapiens with 4 samples.

Results

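RAB GTPases are the largest branch of the RAS superfamily of small GTPases. Each one switches between a GTP-bound form, which sits on a membrane and recruits effector proteins, and a GDP-bound form, which is held in the cytosol. Through this cycle different RAB proteins direct the budding, movement and fusion of vesicles at different organelles. In melanocytes a few of them, above all RAB27A, RAB38, RAB32 and RAB17, serve the building and transport of melanosomes, the pigment organelles, and these were set aside here. The genes described are all others whose symbol is RAB followed by a number and at most 1 letter, 59 of the 19974 protein-coding genes that RefSeq lists on the autosomes and the X chromosome. The pseudogene RAB1C also matched, had no summit and was not counted.

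The data are chromatin immunoprecipitation followed by sequencing (ChIP-seq) of TBX3, a T-box transcription factor, in 501mel, an established human melanoma cell line. Per the labels, 2 samples carried TBX3 with a triple HA tag (TBX3-3xHA) and were precipitated with the anti-HA antibody 12CA5, and 2 further samples were input chromatin of the same line. Both ChIP lists carry the name iTBX3-3xHA, but the prefix is not explained there and the labels do not say how tagged TBX3 was expressed. They also do not say whether the replicates were separate cultures, so the spread between replicates may be technical. The ChIP lists held 32479 summits in replicate 1 and 40494 in replicate 2, and the inputs were not analysed here. Read depth is unknown. A peak list holds no expression, so the melanoma label could not be checked against marker genes.

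A summit is the single base at which a peak is highest, and each deposited list names the gene with the nearest transcription start site (TSS) in hg38. A shared region is a pair of summits, 1 from each list, that were each other's nearest and at most 200 bp apart. The peak score is the authors' own and its scale is not stated, so each score is given with its percentile within its own list, where 100 is the highest. With 1 ChIP condition, and with members chosen by name, no test was made. Each main count of RAB genes stands beside the same count over all protein-coding genes. For most alternative settings that count was not taken.

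TBX3 summits lay near a minority of the RAB genes. Of the 59 genes, 8 had a TSS with a shared region at most 10 kb away, 13.6% (95% Wilson interval 7.03% to 24.5%). The background was 10.0% of all protein-coding genes, so the share of RAB genes was near the background. The 8 genes were RAB5B, RAB6B, RAB7B, RAB20, RAB8B, RAB3D, RAB42 and RAB30. At any distance 20 of the 59 genes had a shared region, 33.9% (23.1% to 46.6%), against 28.5% of all protein-coding genes. A summit in at least 1 list named 29 of the 59 genes, 49.2%, against 41.6%. By the same measure within 10 kb, replicate 1 alone named 10 RAB genes (16.9%, background 13.4%) and replicate 2 alone named 12 (20.3%, background 15.5%).

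The genes fell into roles by the organelle each protein is best known for. Of the 18 genes of the endoplasmic reticulum (ER) and Golgi, 2 had a near region, that is, one within 10 kb, and 1 more had one farther away. Of the 14 genes of early and recycling endosomes, 1 had a near region and 4 had only farther ones. Of the 7 genes of late endosomes, lysosomes and autophagy, 1 had a near region and 1 a farther one. Of the 11 genes of secretory vesicles and exocytosis, 2 had near regions and 4 farther ones, which left 4 with no summit and 1, RAB13, with a summit in replicate 1 alone. Of the 9 genes with other roles, 2 had near regions and 2 farther ones. The background for each of these counts is the same as above, 10.0% of protein-coding genes within 10 kb and 28.5% at any distance. The groups are small, and differences between them were not tested.

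**Figure D1:**
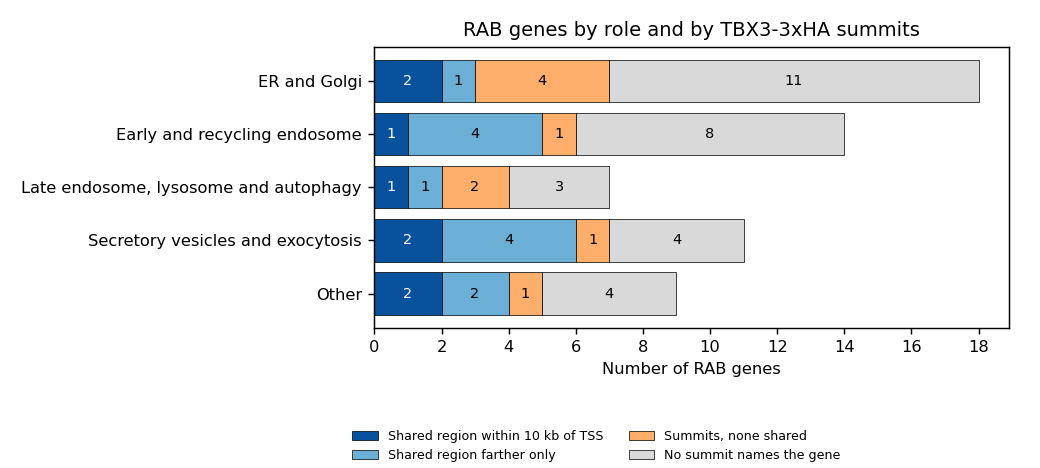
Number of RAB genes in each role (horizontal axis, genes), split by whether a shared region lay within 10 kb, only farther away, whether summits occurred without a shared one, or whether no summit named the gene. Genes with a near region number 1 or 2 in every role, and genes with no summit are the largest class among the 18 ER and Golgi genes, at 11.

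RAB7B was the one RAB gene whose TSS had a shared region within 1 kb in both lists, so the sequence in which it lay is shown first. The summits were 46 bp and 124 bp upstream of the RefSeq start. The window holds the 250 bases before that start on the minus strand, chr1:205994458-205994707 in GRCh38.p14, from the RefSeq promoter table. Capitals mark the 79 bases from one summit to the other. The second sequence is the corresponding window of RAB42 on the plus strand, chr1:28592015-28592264. It is shown because it was the only promoter window with a match to the T-box core among those found for 7 of the 8 genes. The RAB42 summits lay upstream of this window, not in it. Capitals there mark the core GGTGTG.
RAB7B promoter: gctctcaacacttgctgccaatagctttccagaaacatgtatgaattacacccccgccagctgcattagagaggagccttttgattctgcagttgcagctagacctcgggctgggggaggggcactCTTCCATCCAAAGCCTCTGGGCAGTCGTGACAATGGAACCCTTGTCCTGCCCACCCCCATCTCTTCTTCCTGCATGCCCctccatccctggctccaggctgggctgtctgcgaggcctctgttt
RAB42 promoter: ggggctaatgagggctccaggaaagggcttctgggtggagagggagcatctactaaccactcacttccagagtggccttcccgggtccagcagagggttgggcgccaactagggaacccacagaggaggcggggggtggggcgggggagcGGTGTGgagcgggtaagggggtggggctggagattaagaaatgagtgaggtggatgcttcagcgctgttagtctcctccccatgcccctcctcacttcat

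T-box factors are known to bind sequences around the T-box element AGGTGTGA, whose core is GGTGTG. Both were searched on both strands, and every match to the element holds the core. Of the 59 genes, 47 matched the promoter table by symbol, with 64 windows of 300 bases (250 before and 50 after the start). The core was in 12 of these windows (18.8%), against 16.9% of 22156 windows of all protein-coding genes. The longer element was in 1 window, that of RAB21, against 0.930% of all windows, and no summit named RAB21. The 12 windows of the genes with a near region, which covered 7 of the 8 genes, held the core once, at RAB42, where it began 100 bp before the start. The RAB7B window that holds the 2 summits had no match to the core, which says only that these letters are not in that window.

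The highest-ranked near region was assigned to RAB5B, a GTPase of early endosome fusion. On chromosome 12, its summits were 55970825 in replicate 1 and 55970783 in replicate 2, and its scores were 165.1 in replicate 1 and 217.9 in replicate 2. These were percentiles 97.5 and 97.4, so the lists placed it alike. The summits were 3088 bp and 3130 bp upstream of the RAB5B TSS, but RefSeq places them outside RAB5B, and they fall into intron 5 of 6 of CDK2, a cyclin-dependent kinase gene. PMEL, which encodes the amyloid matrix protein of melanosomes, had its nearest RefSeq end 4116 bp from the replicate 1 summit. A separate shared region 732 bp from the PMEL TSS in replicate 1 also lay within 10 kb of the RAB5B span. The nearest-TSS rule thus gave RAB5B a region that RefSeq places inside a neighbouring gene.

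RAB6B encodes the form of the Golgi GTPase RAB6 that is abundant in neurons. On chromosome 3 the leading pair of summits, 133888342 and 133888353, fell into its intron 1 of 7 and into a MIRb element, 7505 bp and 7494 bp downstream of the TSS. The scores were 91.1 and 126.3, percentiles 92.9 and 93.7. A second RAB6B region, in intron 2 of 7 and 44112 bp from the TSS in replicate 1, was far weaker in both lists, with scores of 7.82 and 5.55. The 2 regions of RAB6B thus differed more from each other than either did between the replicates.

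RAB7B acts in transport from late endosomes to the trans-Golgi network, and it had 3 shared regions, 2 of them within 10 kb. The strongest, on chromosome 1 with summits 205998624 and 205998638, fell into an intron of a longer RAB7B transcript, 4185 bp and 4199 bp upstream of the nearest annotated TSS. Its scores were 57.0 and 128.2, percentiles 87.3 and 93.8. The region in the window printed above had summits at 205994503 and 205994581, which the deposited annotation places 64 bp and 142 bp upstream of its TSS. Its scores were 7.79 and 35.3, percentiles 29.6 and 75.1, and this rise of 45.5 percentiles from replicate 1 to replicate 2 was the largest among the RAB regions. The third region was in the last exon of a non-coding transcript, 17473 bp from the TSS in replicate 1, with scores of 16.0 and 33.3. A further summit in replicate 2 alone lay 783 bp upstream of another RAB7B TSS, with a score of 3.20. Intron, promoter and exon regions therefore all occurred at this gene, and the promoter region was the least alike between the lists.

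At RAB20, which is found on endosomes and phagosomes, the summits were at 110568929 and 110568942 on chromosome 13. They were intergenic, 7192 bp and 7205 bp upstream of the TSS and within the LTR element MLT1B. The scores were 56.7 and 73.3, percentiles 87.1 and 87.6. With RAB5B, RAB6B and the RAB7B intron region, this made 4 near regions that both lists placed above percentile 80. The share of near regions of all genes above that limit was not taken.

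The other 4 near genes had weaker near regions. RAB8B, which acts in exocytic membrane traffic, had intergenic summits at 63185254 and 63185251 on chromosome 15, 4275 bp and 4278 bp upstream of the TSS, with scores of 16.2 and 15.2. The summits of RAB3D, a GTPase of regulated secretion, on chromosome 19, 11330444 and 11330381, fell into its last intron (4 of 4), 9224 bp and 9287 bp from the TSS, with scores of 9.80 and 21.2. RAB42, a little studied member, had intergenic summits at 28590192 and 28590345 on chromosome 1, 2008 bp and 1855 bp upstream of the TSS, with scores of 8.29 and 14.7. RAB30, a Golgi GTPase, had summits at 83035539 and 83035663 on chromosome 11, 970 bp and 1094 bp upstream of one of its start sites and annotated as promoter in replicate 1 and intron in replicate 2, with scores of 5.12 and 4.90. In percentiles, the near region of RAB30 was low in both lists (14.7 and 13.8) and that of RAB8B was middling in both (58.1 and 52.7). Those of RAB3D (39.6 and 62.9) and RAB42 (32.9 and 51.2) were higher in replicate 2. RAB30 had higher summits elsewhere. A replicate 2 summit without a partner lay 9122 bp from its TSS, at percentile 78.2. A farther shared region, 45183 bp from the TSS in replicate 1, stood at percentiles 43.8 and 70.5. Another inside the RAB30 span, at 67.3 and 76.3, named SNORA70E.

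Of the 39 RAB regions, 9 were near (23.1%, 12.6% to 38.3%), against 16.4% of all shared regions. By the replicate 1 annotation, 4 of the 9 near regions were in introns, 3 in intergenic sequence and 2 at promoters. Upstream of the TSS lay 7 of the 9. The class and side of the near regions of all genes were not counted, so these counts have no background. The members just inside 10 kb were RAB3D and RAB6B. Just outside were RAB43, at 10358 bp in replicate 1, and RAB40B, at 11072 bp, and both of these scored higher than the RAB3D region in both lists.

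**Figure D2:**
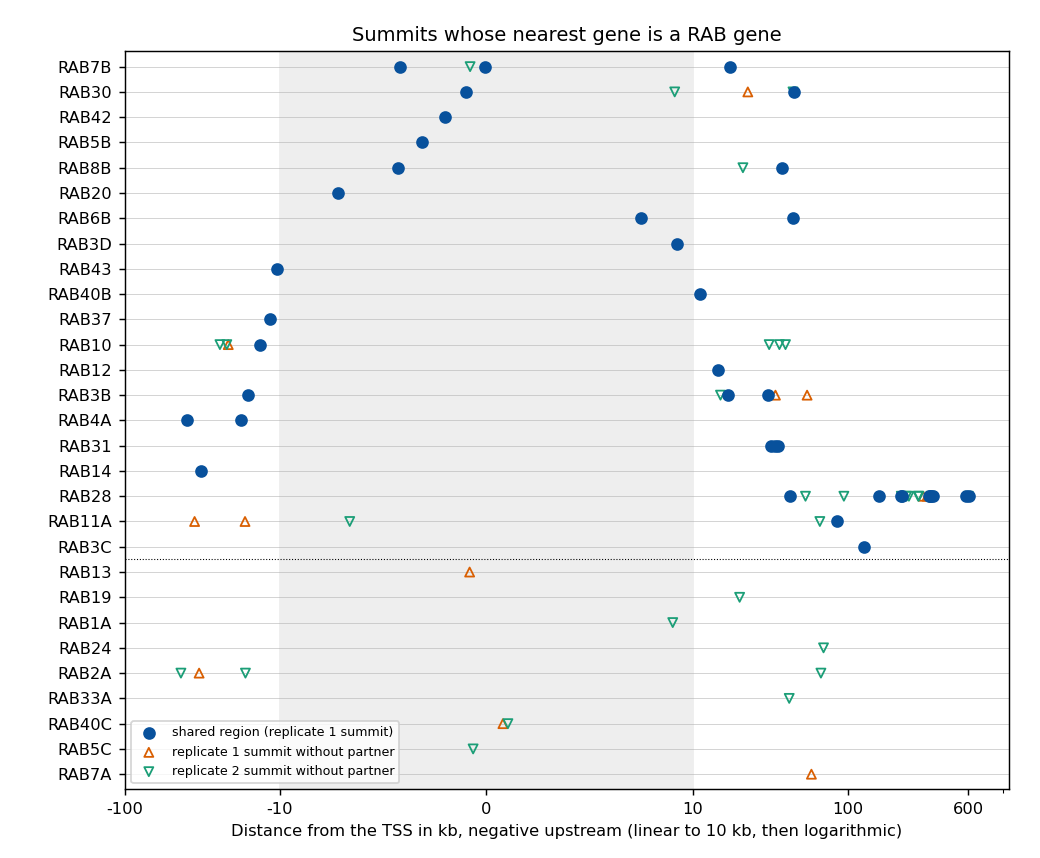
Signed distance in kb from the nearest TSS (horizontal axis, linear to 10 kb and logarithmic beyond, negative upstream) of every summit whose nearest gene is a RAB gene, with 1 row per gene, filled circles for shared regions and open triangles for summits found in 1 list alone. The grey band is the 10 kb window, which holds 9 shared regions of 8 genes, and RAB28 has 10 shared regions, the nearest at 42684 bp.

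A further 12 genes had shared regions only beyond 10 kb. RAB28, linked to cilia and photoreceptors, was the nearest gene of 10 of the 39 RAB regions (25.6%), more than any other. One was in intron 4 of 6 and 9 lay beyond the gene's 3' side, in a gap of 1933396 bp between RAB28 and HS3ST1, the next protein-coding gene in RefSeq. Distances ran from 42684 bp to 609635 bp in replicate 1. Percentiles ran from 3.79 to 93.6 with a median of 47.9 in replicate 1, and from 17.6 to 94.5 with a median of 68.5 in replicate 2. The strongest had summits at 13325898 and 13325905 on chromosome 4, 158467 bp from the TSS in replicate 1, with scores of 98.9 and 138.4. The gap held 14 shared regions, so 5 of them named another transcript as nearest. In this stretch the name RAB28 states the nearest start site and little about proximity.

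RAB40B, whose protein carries a SOCS box that recruits a ubiquitin ligase, had its region on chromosome 17 (summits 82687650 and 82687677) within intron 1 of 5, with scores of 46.2 and 59.0. RAB43, which acts between the ER and the Golgi, had its region on chromosome 3 (summits 129132508 and 129132515) within intron 9 of 10 of the neighbouring gene ISY1, with scores of 44.1 and 58.4. RAB3C, a GTPase of synaptic vesicles, had its region on chromosome 5 (summits 58711084 and 58711109) within intron 2 of 4, at 128040 bp from the TSS in replicate 1, with scores of 28.0 and 55.9. A slightly stronger shared region in intron 3 of 4 of RAB3C, with scores of 30.0 and 58.3, named PDE4D. In percentiles, RAB40B (83.8 and 84.4) and RAB43 (83.2 and 84.3) stood alike in both lists, while the region naming RAB3C stood at 73.6 and 83.6.

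RAB11A, the main GTPase of recycling endosomes, had its region on chromosome 15 (summits 65954460 and 65954446) within intron 10 of 22 of MEGF11, at 85001 bp from the RAB11A TSS in replicate 1, with scores of 26.0 and 33.4. RAB3B, another synaptic vesicle GTPase, had 3 regions, the strongest on chromosome 1 (summits 51973830 and 51973792) within intron 2 of 4, with scores of 16.6 and 34.3. RAB4A, which acts in fast recycling, had 2 intergenic regions upstream, the stronger at 229231540 and 229231570 on chromosome 1, with scores of 15.0 and 27.5. RAB12, which acts between recycling endosomes and lysosomes, had its region on chromosome 18 (summits 8623953 and 8623931) within intron 1 of 5, with scores of 17.5 and 22.1. All 4 of these leading regions scored in the middle of the lists, with percentiles from 56.1 to 71.7 in replicate 1 and from 63.6 to 74.4 in replicate 2. The remaining 4 genes, RAB31, RAB37, RAB14 and RAB10, had 6 regions between percentiles 16.7 and 64.3 in replicate 1 and between 13.8 and 64.8 in replicate 2. RAB10 also had higher summits that did not pair, at percentile 77.4 in replicate 1 and 67.9 in replicate 2. They were 463 bp apart, beyond the pairing limit. The 3 regions of RAB31 lay within 3598 bp of each other in its first intron. The RAB14 region was in an intron of GSN and moved furthest down, from percentile 55.4 to 17.6.

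A further 9 genes had summits but no shared region naming them. RAB40C came closest to one, with summits 590979 and 591220 on chromosome 16, both within intron 2 of 6. They were 806 bp and 1047 bp from the TSS and 241 bp apart, so they missed the pairing limit of 200 bp. Their scores were 11.4 and 39.6. RAB13 (806 bp upstream, replicate 1) and RAB5C (637 bp upstream, replicate 2) had a promoter summit in 1 list, with scores of 11.1 and 10.7. RAB7A had a summit in replicate 1 alone. RAB1A, RAB19, RAB24 and RAB33A had one in replicate 2 alone, and RAB2A had summits in both lists that did not pair. Summits of RAB rows without a partner had a median percentile of 24.3 in replicate 1 (n = 12) and 25.9 in replicate 2 (n = 30), close to the 20.8 and 26.6 of all such summits.

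No summit named the other 30 genes. They were RAB11B, RAB15, RAB18, RAB1B, RAB21, RAB22A, RAB23, RAB25, RAB26, RAB27B, RAB29, RAB2B, RAB33B, RAB34, RAB35, RAB36, RAB39A, RAB39B, RAB3A, RAB40A, RAB41, RAB44, RAB4B, RAB5A, RAB6A, RAB6C, RAB6D, RAB8A, RAB9A and RAB9B. RAB27B, the close paralogue of the melanosome gene RAB27A, was among them. For comparison, RAB27A had 2 shared regions within 10 kb, the stronger at percentiles 98.9 and 98.1. RAB38 had 1 near region at percentiles 85.0 and 90.8, RAB32 had 1 farther region only and RAB17 had none. The difference between these 4 genes and the 59 was not tested.

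Of the genes not named by any shared region, 3 had one inside or within 10 kb of their RefSeq span, used in place of the nearest TSS, and RAB2A and RAB7A are described here. RAB2A, which acts between the ER and the Golgi, held a region that outranked all 39 regions named for RAB genes in both lists. Its summits, 60619903 and 60619953 on chromosome 8, fell into the last intron (7 of 7), with scores of 336.7 and 554.5, percentiles 99.5 and 99.8 and ranks of 172 and 91. The list names CHD7, a chromatin remodeller gene whose TSS was 58862 bp away in replicate 1, as nearest. RAB7A, the GTPase of late endosomes and lysosomes, held 2 shared regions that name a pseudogene, IFT122P3. The stronger, on chromosome 3 (summits 128808754 and 128808759), fell into intron 5 of 5, with scores of 74.0 and 126.7, and the other was in intron 3 of 5, with scores of 34.1 and 64.5. With regions counted within 10 kb of the span, 17 of the 59 genes had one (28.8%, 18.8% to 41.4%), against 28.6% of all protein-coding genes. The span therefore changed which RAB genes were counted, and by either measure the share stayed near its background.

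RAB summits had a partner in the other list about as often as summits in general, but the paired summits lay farther apart. Of the RAB summits, 39 of 51 in replicate 1 had a partner (76.5%, 63.2% to 86.0%) and 39 of 69 in replicate 2 (56.5%, 44.8% to 67.6%), against 69.9% and 56.1% of all summits. When the gene was taken from either list alone, the number of RAB regions was again 39, so the lists did not differ in the gene they named. The median gap between paired summits was 41 bp, against 28 bp for all shared regions. Spearman's rho of the 2 scores was 0.807 over 39 regions and 0.852 over all 22702, as a description across regions of the same 2 libraries.

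RAB regions scored somewhat lower than shared regions in general. Their median percentile was 55.4 in replicate 1 (quartiles 31.1 and 70.8) and 63.6 in replicate 2 (41.3 and 82.6), against medians of 63.6 and 70.5 for all shared regions. Of the 39, 3 were above percentile 90 in both lists, namely those of RAB5B and RAB6B and 1 of RAB28. The same share over all shared regions was not taken, so this count has no background. The percentile was higher in replicate 2 for 30 of 39 (76.9%), as it was for 67.0% of all shared regions. These differences were not tested.

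**Figure D3:**
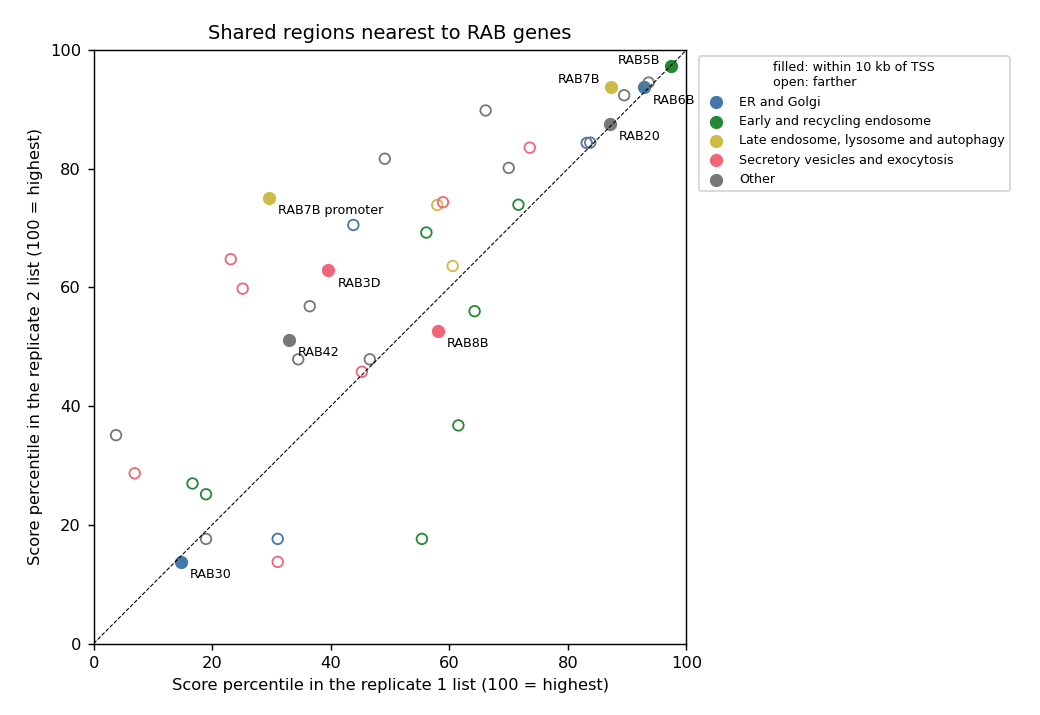
Score percentile in the replicate 1 list (horizontal axis) and the replicate 2 list (vertical axis) of the 39 shared regions nearest to RAB genes, coloured by role and filled where they lie within 10 kb of the TSS, with equal percentiles on the dashed line. RAB5B, RAB6B and 1 RAB28 region stand above 90 on both axes, and 30 of 39 points lie above the line.

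Most RAB regions lay in introns or between genes. Introns held 19 of 39 in replicate 1 (48.7%, 33.9% to 63.8%) and 20 in replicate 2, against 39.7% of all shared regions. Intergenic sequence held 17 (43.6%, 29.3% to 59.0%) in both lists, against 53.2%. No RAB region was in a satellite repeat, the class that held 16.6% of all shared regions, and outside satellites the general shares were 47.6% for introns and 44.4% for intergenic sequence. With RAB28 included, the RAB regions were thus divided much like other regions outside satellites. RAB28 gave 9 of the 17 intergenic regions, and without it introns held 62.1% of the remaining 29 regions. By RefSeq spans, 18 of the 39 lay in the RAB gene itself, 4 lay only in another protein-coding gene (CDK2 at RAB5B, ISY1 and the readthrough gene ISY1-RAB43 at RAB43, MEGF11 at RAB11A and GSN at RAB14) and 17 in none.

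SINE elements, short interspersed repeats, held 7 of 39 RAB regions (17.9%, 8.98% to 32.7%), against 4.31% of all shared regions and 5.17% of those outside satellites. Of these 7, 5 were in MIR, an ancient SINE family (12.8%, 5.60% to 26.7%, against 1.73%), at RAB6B in 2 regions and at RAB28, RAB31 and RAB42. The other 2 were in Alu, at RAB3D and RAB37. This share was picked out after the repeat classes had been looked over, and it was not tested. LTR elements held 6 regions (15.4%) and LINE elements 4 (10.3%), against 10.5% and 7.07%.

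**Figure D4:**
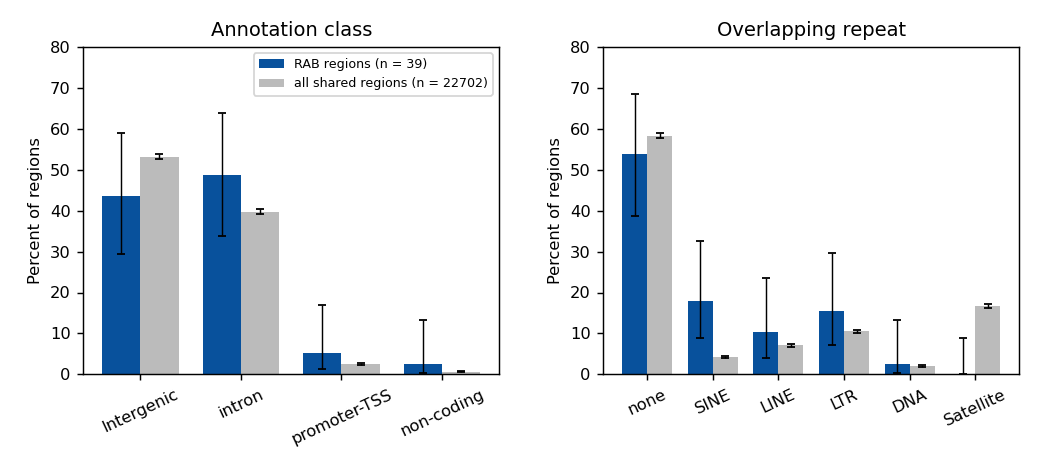
Percent of shared regions (vertical axes) by annotation class in replicate 1 and by overlapping repeat, for the 39 RAB regions (blue) and all 22702 shared regions (grey), with 95% Wilson intervals as error bars that cover counting error only. Introns lead among RAB regions at 48.7%, SINE elements stand at 17.9% against 4.31%, and satellites hold none of the RAB regions against 16.6%.

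The genes with a shared region at any distance were longer, with a median RefSeq length of 41192 bp (n = 20) against 23957 bp (n = 39) for the others. Over all protein-coding genes the same medians were 53969 bp (n = 5696) and 18057 bp (n = 14278).

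The proteins that load, switch off and follow RAB GTPases formed a second list of 106 genes. Of these, 14 had a near region (13.2%, 8.03% to 21.0%), against the background of 10.0%. GTPase-activating proteins, which switch RAB proteins off, made up 9 of the 14, of 37 listed (24.3%, 13.4% to 40.1%). Effectors made up 5, of 31 listed (16.1%, 7.09% to 32.6%). None of the 31 exchange factors, which switch RAB proteins on, had one (interval 0% to 11.0%), nor did any of the 7 genes of prenylation and recycling. At any distance, 7 of the 31 exchange factors and 19 of the 37 GTPase-activating proteins had a shared region. So did 10 of the 31 effectors and 1 of the 7 genes of prenylation and recycling. In all, 37 of the 106 genes had one at any distance, against 28.5% of all protein-coding genes. The groups of regulators were not tested against each other.

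The highest-ranked regulator was TBC1D14, a TBC-domain protein of autophagy, whose region on chromosome 4 (summits 6916846 and 6916805) fell into intron 1 of 13, with scores of 185.3 and 234.0. RPH3A, rabphilin, an effector of RAB3 and RAB27 proteins, had its region on chromosome 12 (summits 112578159 and 112578178) within intron 1 of 21, with scores of 134.7 and 263.8. RABGAP1L, a GTPase-activating protein, had a promoter region at 174799825 and 174799676 on chromosome 1, 72 bp and 221 bp upstream of a TSS, with scores of 169.6 and 174.6. Their percentiles ran from 96.1 to 98.1, beside 97.5 and 97.4 at RAB5B. TBC1D25 had a promoter region on the X chromosome with scores of 106.7 and 154.5. At TBC1D5 a promoter region on chromosome 3 lay 3 bp from the TSS in replicate 1, with scores of 55.3 and 56.3. SYTL3, a synaptotagmin-like effector of RAB27 proteins, had an intron region with scores of 19.1 and 45.3. The other 8 were TBC1D10A, TBC1D2B, TBC1D2, TBC1D20, APPL2, TBC1D1, EXPH5 and BICD1. They lay between percentiles 0.760 and 50.2 in replicate 1 and between 19.6 and 78.8 in replicate 2, with TBC1D10A the highest in replicate 2. The TBC1D10A region fell into the last exon (16 of 16) of the neighbouring gene SF3A1, 5919 bp upstream of the TBC1D10A TSS in replicate 1.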

How the data were processed

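Peak lists of the 2 ChIP samples were used. Per the file headers, each was made with annotatePeaks.pl from a summit file of 1 sample on hg38, so replicates were not pooled. The submitters' processing notes also name cutadapt 2.8, Bowtie2 2.3.5, SAMtools 1.9, FastQC 0.11.7 and MACS2 2.1.2, without settings. Each summit carries a score that the authors deposited, from 2.01 to 789.3 in replicate 1 and from 2.00 to 805.6 in replicate 2. The distance to the TSS, gene, class and repeat are those the authors deposited. Depth is unknown.

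Summits were paired when mutually nearest within 200 bp, and both summits had to name the gene. Within a list summits were at least 415 bp apart in replicate 1 and 429 bp in replicate 2. Of 12468 gene identifiers, 12414 matched the RefSeq table of GRCh38.p14. Ranks and percentiles were taken within each list (Python 3.11.15, pandas 2.3.3). Wilson intervals are at 95%. Pairing was tested on simulated data. The genes named are, by lowest rank sum, those within 10 kb (up to 12), 8 farther ones, those with most regions, those at the limit and 6 regulators; others were added after their values were seen. Members and lists were chosen with earlier results of these data known. Alternatives covered the pairing distance, score limits, single lists, the annotation used, TSS distance, gene span and satellites. Inputs were not analysed here. One RAB locus with shared regions in its span is not reported here. A genome sequence was not used here, so summit sequences outside the RefSeq promoter windows are not shown.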

Additional observations from a re-analysis of the deposited data

How the results depend on the processing

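Of 63 alternatives, 37 stayed within 1.5 times the main count or within the interval of the main value. Leaving out RAB28, nearest to the most regions, was chosen after seeing the data and moved nothing beyond these limits. The number of RAB genes with a region within 10 kb, 8, became 0 with summits at the same base, 5 with pairs within 50 bp, 5 with scores at or above the median, 3 in the top 5000, 1 within 1 kb, 5 within 5 kb, 18 within 50 kb and 17 by gene span. With a single list it ranged from 10 to 12. At any distance the 20 genes became 0 at the same base and 4 in the top 5000, and 24 to 27 with a single list. The 39 regions became 0 at the same base, 21 within 50 bp, 19 at or above the median and 5 in the top 5000, and with a single list 51 to 69 summits, the latter without replicate 1. The share of replicate 1 RAB summits with a partner became 0% at the same base, 41.2% within 50 bp and 86.4% at or above the median. The share in replicate 2 became 0% at the same base, 30.4% within 50 bp and 83.3% in the top 5000. The 14 regulators became 6 within 1 kb, 8 within 5 kb, 32 within 50 kb and 40 by gene span, and 19 to 23 with a single list, the latter without replicate 1. These settings change how many summits qualify by construction. For most of them the count over all protein-coding genes was not taken. No paired analysis was possible because only 1 group had peak lists. Unknown depth limits any reading of a missing summit.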

Other observations

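Other families of small GTPases were counted in the same way, by symbol and after the RAB values had been seen. Of 27 ARF and ARL genes, which act in vesicle coats and cilia, 1 had a shared region at most 10 kb from its TSS, ARL11 (3.70%), and 6 had one at any distance. Of 13 RAS, RAP and RAL genes, none had one within 10 kb and 4 had one at any distance. The background was 10.0% of protein-coding genes within 10 kb and 28.5% at any distance, and no difference between the families was tested.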
